A study of Mus musculus with 4 samples.

Results

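The genes described here are 10 genes of the integrated stress response and the unfolded protein response, measured by RNA-seq in mouse hematopoietic stem and progenitor cells (HSPCs) with and without Chaf1b, the middle subunit of the histone chaperone CAF-1. They were named as known pathway genes and kept if present in all 4 count files. All 10 were, out of 43629 gene identifiers in the files, and each had counts in every library. Atf4, Ddit3, Trib3, Chac1 and Asns stand for the branch run by the transcription factor ATF4, and Xbp1, Hspa5, Hsp90b1, Herpud1 and Sdf2l1 for the endoplasmic reticulum (ER) side of the response. All cells were CD117+ HSPCs from C57Bl/6 mice carrying floxed Chaf1b alleles (Chaf1b fl/fl), grown in StemSpan SFEMII with SCF (50 ng/mL), IL6 (20 ng/mL), IL3 (10 ng/mL) and LDL (1:200). These amounts are from the labels, and the study's methods text gives a lower one for IL6. The 2 MIGR1 control libraries came from cells spinfected with the empty retroviral vector, and the 2 Chaf1b deleted libraries from cells spinfected with the same vector carrying Cre recombinase. In each group, eGFP-positive cells were sorted 48 h later. The controls therefore carried the floxed alleles and the vector but no Cre, so Cre itself and the loss of Chaf1b cannot be told apart, and deletion was acute, in culture and limited to cells that took up the virus. The study's methods describe young adult mice of both sexes. Neither they nor the labels give the sex behind each library or say whether replicates came from separate animals. The p-values therefore measure the spread between these samples, which may be technical in the controls. The deleted libraries differed in Xist and Y-linked counts, given below, so they were not repeats of a single sample. The comparison asks how the loss of a CAF-1 subunit changes RNA levels in progenitors.

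ATF4 is a basic leucine zipper transcription factor whose messenger RNA is translated better when the initiation factor eIF2 is phosphorylated by kinases that sense amino acid shortage, ER stress, double-stranded RNA or heme shortage. Its targets import and make amino acids, charge tRNAs and, when stress lasts, include the pro-apoptotic factor CHOP (Ddit3). ER stress also activates IRE1, which splices Xbp1 RNA, and ATF6, and together these raise chaperones and the machinery that removes misfolded proteins. Hematopoietic stem cells are known to be sensitive to such stress, and counts per gene show neither the splicing of Xbp1 nor the translation of Atf4.

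Depth was 22736626 and 25409926 counts on genes in the MIGR1 controls and 23539015 and 18468637 in Chaf1b deleted replicates 1 and 2. Levels are given in CPM, raw counts scaled to a total of 1000000 counts on genes, while fold changes come from a fit to all genes after TMM scaling, which corrects for the make-up of each library. Chaf1b itself (ENSMUSG00000022945), counted over the whole gene, had 80.3 and 57.9 CPM in the MIGR1 controls and 16.1 and 17.9 in the Chaf1b deleted libraries. Both deleted libraries were far below both controls, and the groups did not overlap. The log2 fold change of deleted over control was -2.01 ± 0.25 (SE, 95% interval -2.58 to -1.44), with a Benjamini-Hochberg adjusted p of 0.0330 in edgeR's quasi-likelihood test. Across 12 alternative settings the adjusted p ran from 3.37e-09 to 0.0651, and Chaf1b was called in 10 of them. A gene is called here at an adjusted p under 0.05 with a change of at least 1.5-fold. Of 16500 genes tested, 61 were called higher (0.370%) and 1, Chaf1b, was called lower (0.00606%) in the deleted libraries. In bulk RNA, fewer cells that express a gene and less of its RNA per cell cannot be told apart, here and for every gene that follows.

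The library labelled Chaf1b deleted replicate 1 stood apart from the other 3 in ways that the treatment label does not describe. Xist, the RNA that coats the inactive X chromosome, had 26 and 33 counts in the MIGR1 controls and 7905 and 23 in the Chaf1b deleted libraries. The 4 Y-linked genes Ddx3y, Eif2s3y, Kdm5d and Uty together had 7373 and 7771 counts in the controls, 3 in deleted replicate 1 and 5805 in deleted replicate 2. So Xist was high and the Y-linked genes were near 0 in deleted replicate 1, with the reverse in the other 3 libraries. The 15 interferon-response genes examined, led by Irf7, summed to 153 and 179.6 CPM in the controls and 1696 and 195 in the deleted libraries. Their excess was in deleted replicate 1. All 15 had a log2 fold change above 0 with a median of 2.97, and without that library 9 of 15 did, with a median of 0.15. None was called by edgeR's quasi-likelihood test, although 13 were higher at an unadjusted p under 0.05 (9.15% of all genes tested were). The exact test called 7 of them higher, where 518 of 16500 genes were, and DESeq2 called 0, where 458 of 31399 were. With no low-count filter the quasi-likelihood test called 14, where 808 of 31399 genes were called higher. Their median log2 fold change was 2.67 without control replicate 1, 3.03 without control replicate 2 and 3.86 without deleted replicate 2. The deleted libraries also lay at the extremes in reads that the counting matched to no gene feature. These were 35.8% in replicate 1 and 48.3% in replicate 2, with 42.3% and 42.1% in the controls. Many results are therefore also given without deleted replicate 1 or other single libraries. The part of these differences in the stress genes was not tested.

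Kit, the gene for CD117, had 109 and 124 CPM in the MIGR1 controls and 95.6 and 124 in the Chaf1b deleted libraries. All 9 progenitor genes examined were detected, Mpo being the most abundant and Flt3 called higher in the deleted libraries. Together they summed to 5119 and 4591 CPM in the controls and 5142 and 4122.5 in the deleted libraries, well below the neutrophil sums that follow. Neutrophil granule genes were abundant in every library: 8 of 8 were detected, led by S100a9, and summed to 47293 and 55175 CPM in the controls and 68999 and 52008 in the deleted libraries. The 7 macrophage genes, led by Csf1r, summed to 174 and 490.2 CPM in the controls and 413 and 313 in the deleted libraries, and 6 dendritic cell genes, led by Ccr7, to 15.3 and 19.7 CPM in the controls and 67.5 and 51.0 in the deleted libraries. The macrophage sums overlapped between the groups, and the neutrophil sum was high in deleted replicate 1 but in deleted replicate 2 lay between the controls. The 5 megakaryocyte genes, led by Itga2b, summed to 97.4 and 96.2 CPM in the controls and 149 and 261 in the deleted libraries, and 5 B cell genes, led by Ebf1, to 6.25 and 7.67 CPM in the controls and 12.1 and 13.1 in the deleted libraries. Like the dendritic sum, these sums exceeded both controls in each deleted library, with 5 of 6 dendritic, 4 of 5 megakaryocyte and 5 of 5 B cell genes in that order, which 21.4% of all genes tested showed. Mast cell and basophil genes (8, led by Cpa3) summed to 946 and 629 CPM in the controls and 924.5 and 886 in the deleted libraries, and erythroid genes (6, led by Klf1) to 51.8 and 29.8 CPM in the controls and 26.1 and 35.8 in the deleted libraries, both with overlapping groups. Apart from Flt3, none of the genes in these lists was called by edgeR's quasi-likelihood test. The 6 plasma cell genes, which mark a cell type with abundant ER, summed to 15.3 and 50.9 CPM in the controls and 43.9 and 28.6 in the deleted libraries. Irf4 was the most abundant of them, the sums overlapped between the groups, and the defining receptor Tnfrsf17 had 1 count in control replicate 1 and 0 elsewhere. The 5 T and NK cell genes summed to 80.2 and 96.9 CPM in the controls and 81.1 and 64.2 in the deleted libraries, nearly all of it from Nkg7, and the groups overlapped. The others of that list, Cd3e, Cd4, Cd8a and Ncr1, had at most 0.382 CPM in any library. The part of these cell types in the stress gene results was not tested.

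**Figure D1:**
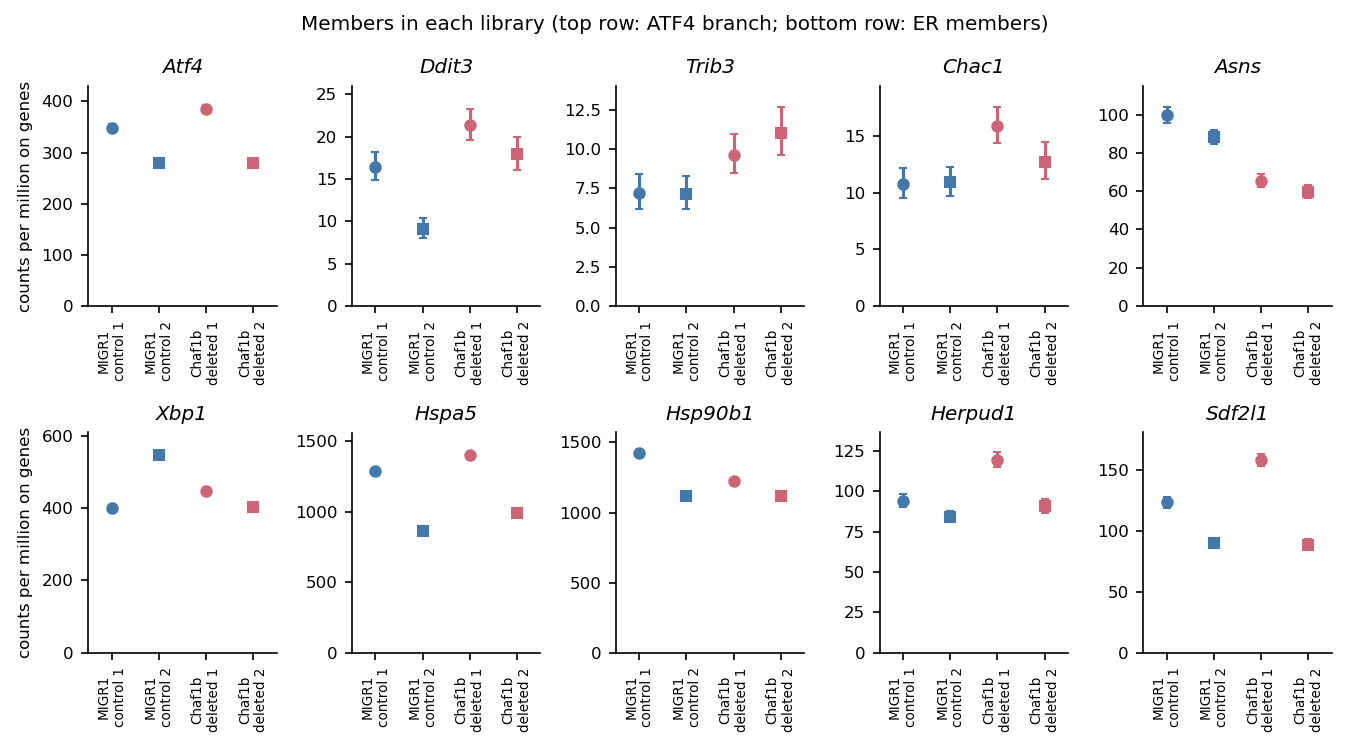
Level in CPM (vertical axes, starting at 0) of the 10 members in each of the 4 libraries, where circles are replicate 1, squares replicate 2, blue points are MIGR1 control and red points Chaf1b deleted, and bars are 95% Wilson intervals for counting error. The red points of Ddit3, Trib3 and Chac1 lie above the blue ones and those of Asns below (Asns 65.4 and 59.7 against 99.8 and 88.5), while among the ER members both groups overlap for every gene.

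Atf4 (ENSMUSG00000042406, chr15:80085614-80087970 on the NCBIM37 build, mm9), the transcription factor at the head of its branch, had 348 and 279.8 CPM in the MIGR1 controls and 384 and 279 in the Chaf1b deleted libraries. Deleted replicate 1 was the highest and the remaining deleted library was level with the lower control, so the groups overlapped. The log2 fold change was 0.12 ± 0.28 (SE, 95% interval -0.53 to 0.77), with an adjusted p of 0.910 in edgeR's quasi-likelihood test. Its sign rested on single libraries, being -0.25 without deleted replicate 1, -0.04 without control replicate 2 and 0.43 without deleted replicate 2. The interval leaves room for a rise of the RNA as well as a fall.

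Ddit3 (ENSMUSG00000025408, chr10:126727830-126733344), which encodes CHOP, a transcription factor induced late in sustained stress, had 16.4 and 9.13 CPM in the MIGR1 controls and 21.3 and 17.9 in the Chaf1b deleted libraries. Each deleted library was above both controls, but the controls differed from each other by more than control replicate 1 differed from either deleted library. Its log2 fold change was 0.65 ± 0.35 (SE, 95% interval -0.16 to 1.47), with an adjusted p of 0.516, and it moved to 1.14 without control replicate 1, 0.28 without control replicate 2 and 0.41 without deleted replicate 1. The exons of Ddit3 overlap those of Mars, a tRNA synthetase gene on the opposite strand, over a short stretch. The library kit keeps strand, but the strand setting of the counting is not given in the sources used here.

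Trib3 (ENSMUSG00000032715, chr2:152163158-152169768), a pseudokinase that feeds back on ATF4, had 7.21 and 7.16 CPM in the MIGR1 controls and 9.64 and 11.0 in the Chaf1b deleted libraries. The controls were level with each other and both deleted libraries were higher. Its 95% Wilson interval, which covers counting error only, ran from 6.19 to 8.40 in control replicate 1, 6.19 to 8.28 in control replicate 2, 8.47 to 11.0 in deleted replicate 1 and 9.63 to 12.7 in deleted replicate 2. Reads carried no molecular identifiers, so such intervals are narrower than the full error. Between groups the log2 fold change was 0.55 ± 0.30 (SE, 95% interval -0.16 to 1.25) and lay between 0.52 and 0.57 in all 12 alternatives, with an adjusted p of 0.533 that ran from 0.405 to 1.00 across them.

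Chac1 (ENSMUSG00000027313, chr2:119176965-119180117), an enzyme that breaks down glutathione, had 10.8 and 10.9 CPM in the MIGR1 controls and 15.9 and 12.7 in the Chaf1b deleted libraries. Like those of Trib3, the controls were level and both deleted libraries lay above them, deleted replicate 1 the more so. The log2 fold change was 0.44 ± 0.30 (SE, 95% interval -0.26 to 1.13), with an adjusted p of 0.619, and ranged from 0.15 without deleted replicate 1 to 0.69 without deleted replicate 2.

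Asns (ENSMUSG00000029752, chr6:7625169-7643254), asparagine synthetase, a classic target of ATF4, went the other way, with 99.8 and 88.5 CPM in the MIGR1 controls and 65.4 and 59.7 in the Chaf1b deleted libraries. Each deleted library was below both controls, and each pair of replicates lay closer together than the groups did. This gave a log2 fold change of -0.56 ± 0.22 (SE, 95% interval -1.06 to -0.05), with an unadjusted p of 0.0344 and an adjusted p of 0.350 in edgeR's quasi-likelihood test, and it was negative in all 12 alternatives, from -0.74 to -0.38. The value nearest to 0, -0.38, was the one without deleted replicate 2. So within the ATF4 branch the members did not share a direction, since Asns was lower while Trib3, Chac1 and Ddit3 were higher in both deleted libraries, and none of them was called.

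The promoters of these genes are shown for their matches to a known response element. All 10 members had an entry in the RefSeq promoter table (GRCm38.p6), 250 bases before to 50 bases after the start of the gene, and each was placed by exact match on NCBIM37. The core of the C/EBP-ATF response element (CARE), TGATG and AA with 1 base of any kind between them, was searched on both strands. It occurred in 3 of the 5 ATF4 branch members, in 1 of the 5 ER members and in 3.97% of all 32851 promoters. A gene counts if any of its promoter entries matched, while the share over all promoters is of single entries. In the stretches that follow, written 5′ to 3′ on the strand of the gene, capitals mark the core, which lies on the opposite strand where it starts with TT. The stretches lie at chr6:7643205-7643252 (minus strand) for Asns, chr2:119176765-119176812 (plus strand) for Chac1 and chr2:152169767-152169802 (minus strand) for Trib3. The window counts from the RefSeq start, which can differ from the GENCODE ends printed with each gene, as for Trib3, where the core lies after the former and before the latter. Atf4 and Ddit3 had no match in this window, which says only that these letters are not in it. Asns and the pair Trib3 and Chac1 thus held the same core and differed in direction.
Asns: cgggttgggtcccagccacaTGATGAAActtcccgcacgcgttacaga
Chac1: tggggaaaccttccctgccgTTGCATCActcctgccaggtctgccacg
Trib3: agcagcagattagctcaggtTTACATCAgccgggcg

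On the ER side, Hspa5 (ENSMUSG00000026864, chr2:34627490-34632051), the chaperone BiP that binds unfolded proteins and holds the stress sensors inactive, had 1292 and 863 CPM in the MIGR1 controls and 1403 and 989.6 in the Chaf1b deleted libraries. The replicate 1 library was the higher of its pair in each group, and the groups overlapped. Its log2 fold change was 0.19 ± 0.34 (SE, 95% interval -0.60 to 0.98), with an adjusted p of 0.873, and it was -0.21 without deleted replicate 1, -0.08 without control replicate 2 and 0.52 without deleted replicate 2. The interval spans both directions.

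Hsp90b1 (ENSMUSG00000020048, chr10:86152954-86168254), the ER chaperone GRP94, had 1423 and 1117 CPM in the MIGR1 controls and 1226 and 1118 in the Chaf1b deleted libraries. Control replicate 1 was the highest, and control replicate 2 and deleted replicate 2 were level. Its log2 fold change was -0.08 ± 0.28 (SE, 95% interval -0.73 to 0.56), adjusted p 0.938, and it turned positive without control replicate 1 (0.11) or deleted replicate 2 (0.09). Of the 31-base stretches in its exons, 4% also occurred elsewhere in the genome, so a small share of its reads may be split with other copies.

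Sdf2l1 (ENSMUSG00000022769, chr16:17130231-17132476), a lumenal protein that works with BiP and is among the strongly induced targets of the response, had 124 and 90.2 CPM in the MIGR1 controls and 159 and 88.8 in the Chaf1b deleted libraries. Deleted replicate 1 was the highest and deleted replicate 2 the lowest of the 4 libraries, so the deleted pair enclosed both controls. With a log2 fold change of 0.26 ± 0.35 (SE, 95% interval -0.54 to 1.07) and an adjusted p of 0.820, it was -0.35 without deleted replicate 1 and 0.71 without deleted replicate 2.

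Herpud1 (ENSMUSG00000031770, chr8:96910338-96919277), a membrane protein of ER-associated degradation that answers to both branches, had 94.3 and 84.4 CPM in the MIGR1 controls and 119.8 and 90.7 in the Chaf1b deleted libraries. Deleted replicate 1 was the highest and the remaining deleted library lay between the controls. This gave a log2 fold change of 0.28 ± 0.25 (SE, 95% interval -0.30 to 0.86), with an adjusted p of 0.724, and it ranged from -0.06 without deleted replicate 1 to 0.56 without deleted replicate 2.

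Xbp1 (ENSMUSG00000020484, chr11:5420662-5425896), the transcription factor activated by IRE1, had 399 and 546 CPM in the MIGR1 controls and 446 and 403 in the Chaf1b deleted libraries. Control replicate 2 was the highest and the other 3 libraries were close together, an order unlike that of the chaperones. The log2 fold change was -0.12 ± 0.26 (SE, 95% interval -0.72 to 0.48), with an adjusted p of 0.899. Without control replicate 2 it was 0.11 and without deleted replicate 2 0.06.

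Chaperone promoters are shown for the ER stress response element (ERSE), CCAAT and CCACG with 9 bases of any kind between them, and Herpud1 for ERSE-II, ATTGG and CCACG with 1 base between them, in the same RefSeq table. On either strand, ERSE occurred in 39 of 32851 promoters (0.119%) and ERSE-II in 12 (0.0365%). Of the 5 ER members, Hspa5 and Hsp90b1 held ERSE, Herpud1 held ERSE-II together with a CARE core, and 0 of the 5 ATF4 branch members held either. The UPRE, TGACGTGG, was in 0 of the 10 members and 0.676% of promoters. Capitals mark the elements, ERSE in Hspa5 (chr2:34627525-34627583, plus strand), a pair of ERSE on opposite strands in Hsp90b1 (chr10:86168258-86168421, minus strand), and the CARE core on the opposite strand followed by ERSE-II in Herpud1 (chr8:96910197-96910307, plus strand). The stretch of Hspa5 lies before its RefSeq start but inside the gene as GENCODE has it. Xbp1 and Sdf2l1 held none of these letters in the window. A match is a description of the sequence and does not show that a factor binds there.
Hspa5: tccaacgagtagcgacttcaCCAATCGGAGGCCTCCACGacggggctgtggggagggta
Hsp90b1: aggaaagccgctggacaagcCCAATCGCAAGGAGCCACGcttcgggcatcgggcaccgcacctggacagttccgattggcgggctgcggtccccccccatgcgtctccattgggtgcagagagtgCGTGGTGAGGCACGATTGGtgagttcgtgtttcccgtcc
Herpud1: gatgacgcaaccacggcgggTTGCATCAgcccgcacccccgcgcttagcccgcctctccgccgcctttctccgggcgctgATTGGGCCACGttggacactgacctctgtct

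**Figure D2:**
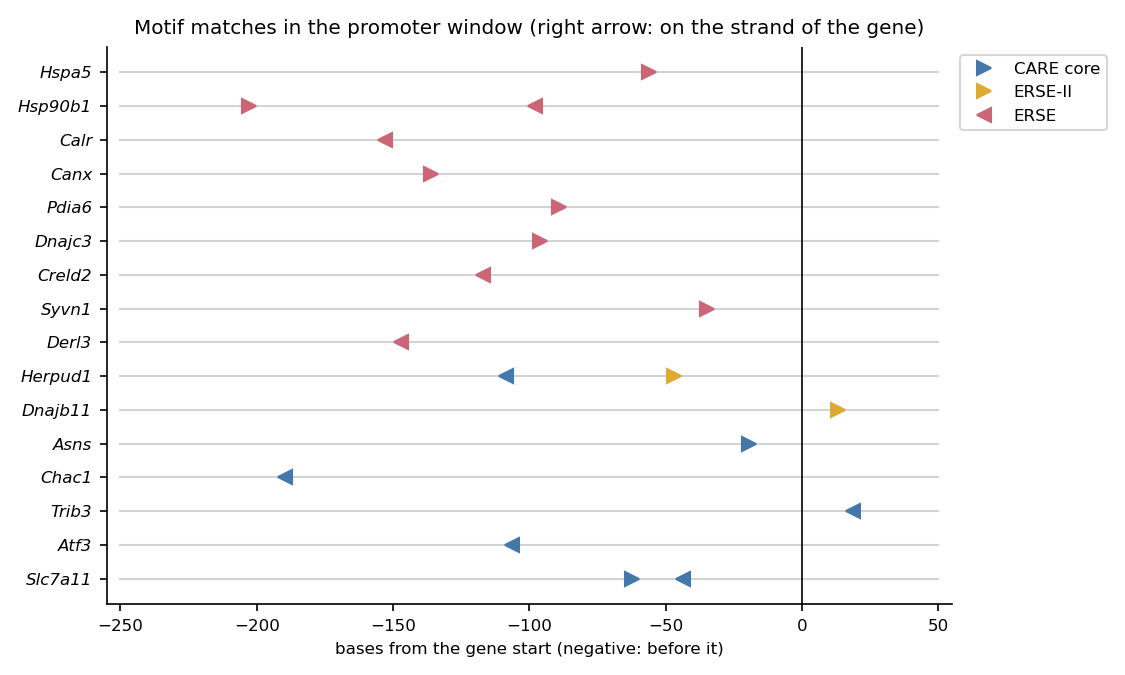
Position of motif matches (horizontal axis, bases from the RefSeq gene start) in promoters, a line per gene. Members with a match and selected pathway genes with a match are drawn. Other pathway genes with a match, among them the tRNA charging genes and those with UPRE, are not drawn. Arrows pointing right are on the strand of the gene and colors give the motif. ERSE matches (red) lie before the RefSeq start in the chaperone and degradation genes, and Hsp90b1 has 2.

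None of the 10 members was called in edgeR's quasi-likelihood test, 0 of them higher against 0.370% of all genes tested and 0 lower against 0.00606%. At an unadjusted p under 0.05, 0 members were higher, where 9.15% of all genes tested were, and 1, Asns, was lower, where 3.10% were. The exact test of edgeR and the Wald test of DESeq2 also called 0 of the 10. By values alone, 3 members (Ddit3, Trib3 and Chac1) lay above both controls in each deleted library, an ordering shown by 21.4% of all genes tested, and 1 (Asns) lay below both, shown by 22.9%. Neither count stands far from its background. All 5 ER members overlapped between the groups.

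Set side by side, the ATF4 branch members had a median log2 fold change of 0.44 and the ER members of 0.19, against -0.03 over all genes tested. Above 0 were 4 of 5 and 3 of 5, as were 47.5% of all genes. In the library medians, relative to the mean of both controls, the ATF4 branch lay at 0.42 in deleted replicate 1 and 0.23 in deleted replicate 2, and the ER members at 0.41 and -0.17. The controls lay at 0.09 and -0.09 for the ATF4 branch and at 0.17 and -0.17 for the ER members. Over all genes tested the same medians were 0.01 and -0.01 in the controls and -0.15 and 0.08 in deleted replicates 1 and 2, so the baseline itself differed between the deleted libraries. Both of them were above both controls in the ATF4 branch median, whereas in the ER median deleted replicate 1 was the highest and deleted replicate 2 was level with control replicate 2. Without deleted replicate 1 the ER median was -0.27 with 0 of 5 above 0, and without deleted replicate 2 it was 0.52 with 5 of 5 above 0. The ATF4 branch median was 0.15 and 0.56 in the same fits, and 0.28 without control replicate 2. The difference between both sets was not tested. In a fit that leaves 1 group with 1 library, that library is assumed to vary like the others.

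**Figure D3:**
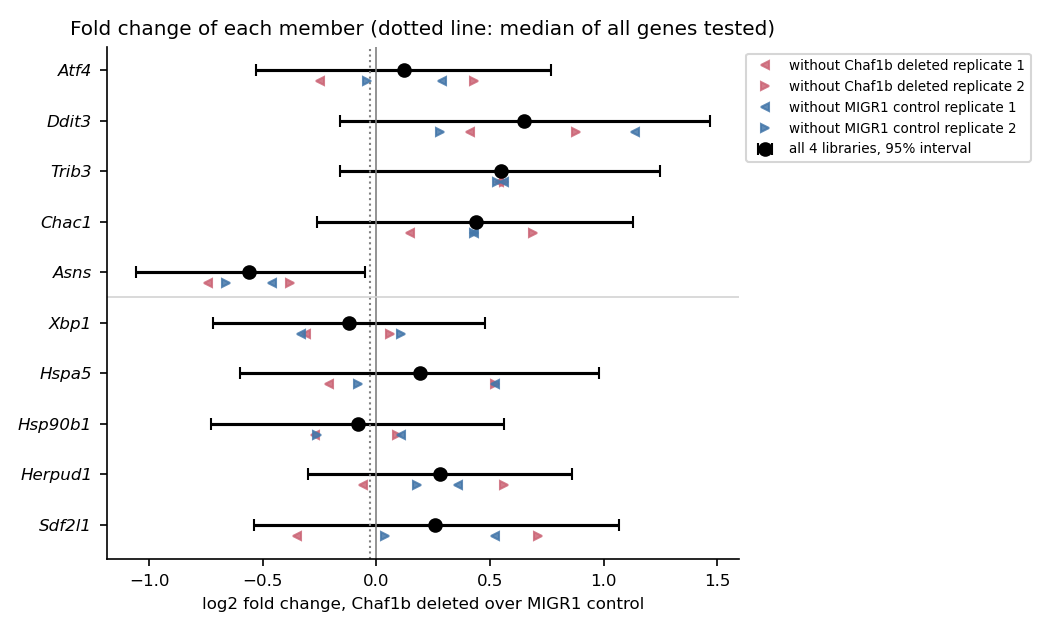
Log2 fold change of Chaf1b deleted over MIGR1 control for each member (horizontal axis), with black points with 95% intervals from all 4 libraries, and colored arrows for the fits without 1 library. The arrows of the ER members fall on both sides of 0, as for Sdf2l1 at -0.35 and 0.71, while those of Trib3 stay near 0.55 and those of Asns stay below 0.

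Levels per kilobase of exon, which can be compared between genes, spread over a wide range in the controls. Hsp90b1 (315 ± 53.6 CPM per kilobase, SD, n = 2) and Hspa5 (307 ± 86.3) were the most abundant members, followed by Atf4 (182 ± 28.1), Xbp1 (146 ± 31.9) and Sdf2l1 (96.5 ± 21.4). Herpud1 (38.3 ± 3.01) and Asns (34.4 ± 2.94) came next, and Ddit3 (9.58 in control replicate 1 and 5.33 in control replicate 2), Chac1 (6.63 ± 0.0713) and Trib3 (3.38 ± 0.0168) were lowest. The controls overlapped between Hsp90b1 and Hspa5, between Atf4 and Xbp1, between Herpud1 and Asns, and between Ddit3 and Chac1, so those neighbors had no order beyond their spread. The ER chaperones were therefore well expressed without Cre, whereas the late ATF4 targets Ddit3, Chac1 and Trib3 were low in every library, the highest of these levels being 12.4 for Ddit3 in deleted replicate 1.

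Among 17 regulators of the integrated stress response, the members Atf4, Ddit3, Trib3 and Chac1 included, 16 were tested. Fgf21 had at most 2 counts in a library and did not pass the filter. Above 0 were 12 of the 16, with a median log2 fold change of 0.59. Of the 16, 1 was called higher by edgeR's quasi-likelihood test, where 0.370% of all genes tested were, and 0 lower. The exact test called 4 of the list higher, where 518 of 16500 genes were. DESeq2 called 3 and the fit with no low-count filter 5, where 458 and 808 of 31399 genes were called higher. The fits with DESeq2 size factors or library size only called 0. An unadjusted p under 0.05 was reached by 7 upward, against 9.15% of all genes, and by 0 downward. In 10 of the 16 each deleted library exceeded each control, which 21.4% of all genes showed. The members Ddit3, Trib3 and Chac1 are among these 10. In 1, Stc2, both were below, which 22.9% showed. The library medians relative to the controls were 0.52 and 0.49 in deleted replicates 1 and 2, and without deleted replicate 1 the median log2 fold change was 0.38 with 11 of 16 above 0.

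The called gene was Gdf15 (ENSMUSG00000038508), a secreted stress cytokine that is also a known p53 target, with 19 and 41 counts in the MIGR1 controls and 316 and 216 in the Chaf1b deleted libraries. The deleted libraries were many times above the controls. On the level scale this was 0.836 and 1.61 CPM in the MIGR1 controls and 13.4 and 11.7 in the Chaf1b deleted libraries, and the log2 fold change was 3.38 ± 0.44 (SE, 95% interval 2.35 to 4.42), with an adjusted p of 0.0367 in edgeR's quasi-likelihood test. It was higher in 2 of 2 deleted libraries and was called in 8 of 12 alternatives, the adjusted p ranging from 1.32e-11 to 0.106. Its call was lost with DESeq2 size factors, with library size only, when every library had to reach 10 counts and with the replicate number in the model. Without deleted replicate 1 its log2 fold change was 3.17, with an adjusted p of 0.0286.

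Sesn2, a sestrin that restrains mTORC1 and is also reached by p53, had 30.3 and 26.8 CPM in the MIGR1 controls and 63.5 and 58.5 in the Chaf1b deleted libraries, and both deleted libraries were above both controls. Its log2 fold change was 1.13 ± 0.22 (SE, 95% interval 0.61 to 1.64), with an unadjusted p of 0.00110 and an adjusted p of 0.101 in edgeR's quasi-likelihood test. It was called in 4 of 12 alternatives. Its log2 fold change was 0.95 without deleted replicate 1 and 1.29 without deleted replicate 2. Cebpb, a leucine zipper partner of ATF4 and a regulator of granulocyte formation, had 25.9 and 32.5 CPM in the MIGR1 controls and 69.2 and 53.9 in the Chaf1b deleted libraries. Here too both deleted libraries were higher, with a log2 fold change of 1.12 ± 0.26 (SE, 95% interval 0.52 to 1.71) and an adjusted p of 0.140 in the same test. Cebpb was called in 4 of 12 alternatives. Its log2 fold change was 0.8 without deleted replicate 1 and 1.38 without deleted replicate 2. Exons of Cebpb overlap Tmem189 on the opposite strand. Atf3 and Atf5, transcription factors chosen here after their values were seen, had 4.05 and 9.60 CPM in the MIGR1 controls and 45.8 and 15.5 in the Chaf1b deleted libraries for Atf3, and 9.02 and 9.76 in the controls and 27.4 and 12.7 in the deleted libraries for Atf5. Both were highest in deleted replicate 1, and the remaining deleted library was above the controls by less. Their log2 fold changes were 2.25 and 1.16, with adjusted p of 0.194 and 0.317, and without deleted replicate 1 they were 1.11 and 0.36. Both were called without deleted replicate 2 and with no low-count filter, and Atf3 also in the exact test, without control replicate 1 and without control replicate 2. Vldlr, a lipoprotein receptor also chosen by its values, had 18.6 and 54.6 CPM in the MIGR1 controls and 11.0 and 33.2 in the Chaf1b deleted libraries, with overlapping groups. Its log2 fold change was -0.75, with an adjusted p of 0.659 in edgeR's quasi-likelihood test. It was -0.22 without deleted replicate 1, -1.60 without deleted replicate 2, -1.32 without control replicate 1 and 0.21 without control replicate 2.

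**Figure D4:**
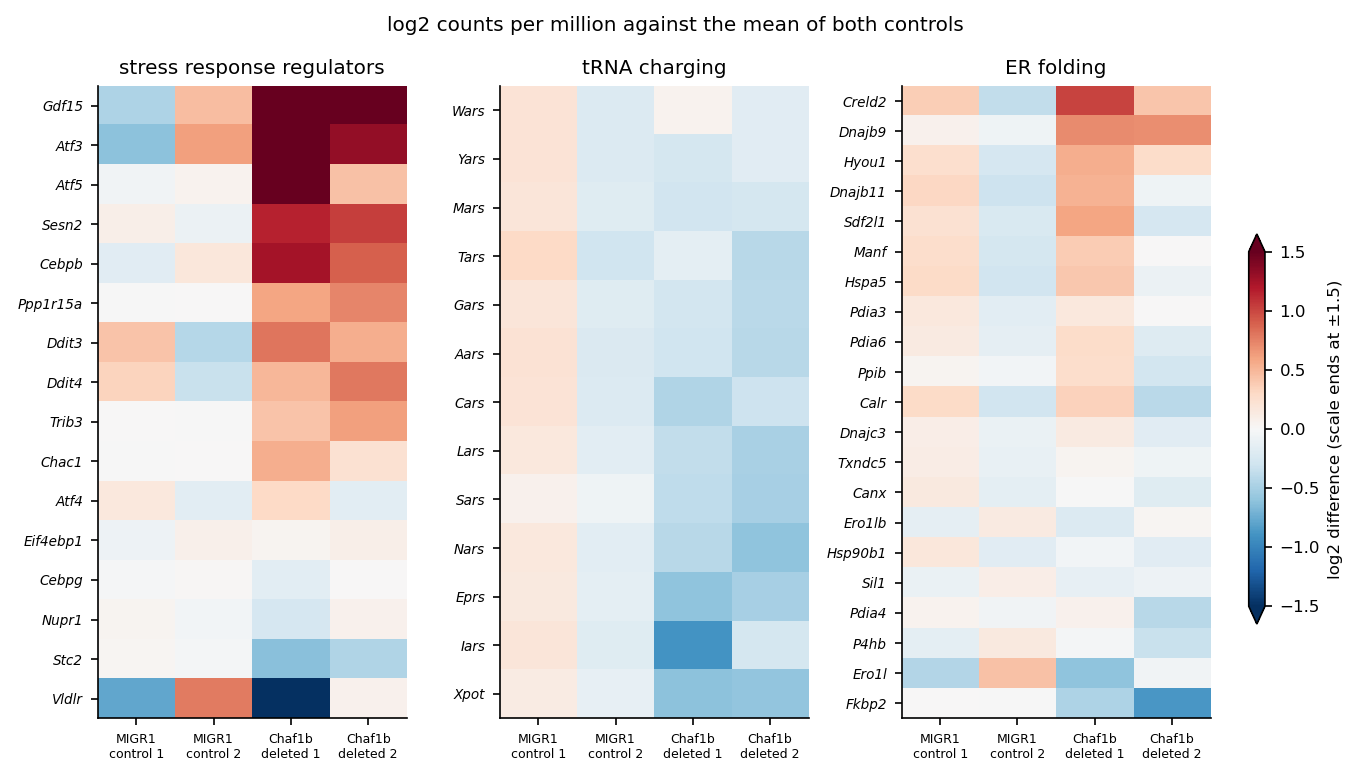
Log2 CPM of each tested gene against the mean of both controls (color, scale ends at ±1.5) in the 4 libraries (columns) for regulators of the integrated stress response, tRNA charging and ER folding genes (panels), ordered by fold change. Red fills both deleted columns for the upper regulators and blue both deleted columns for most tRNA charging genes, while many ER folding genes are red in replicate 1 and blue in replicate 2 of either group.

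ATF4 supplies amino acids through transporters, synthesis enzymes and tRNA charging genes, which are given list by list and were not compared by a test. Of 9 amino acid transporters, 6 were above 0 with a median log2 fold change of 0.23. Of the 9, 0 were called by edgeR's quasi-likelihood test, by the exact test or by DESeq2, and 2 were higher at an unadjusted p under 0.05, against 9.15% of all genes tested. Slc7a11, the cystine importer, had 78.7 and 142 CPM in the MIGR1 controls and 159.5 and 230.1 in the Chaf1b deleted libraries. Control replicate 1 was the lowest and each deleted library exceeded each control, with a log2 fold change of 0.83 ± 0.30 (SE, 95% interval 0.14 to 1.53) and an adjusted p of 0.313. Without control replicate 1 it was 0.47 and without control replicate 2 1.30, and 9.90% of its 31-base stretches occurred elsewhere in the genome. Slc7a5, the large neutral amino acid carrier, had 151 and 128 CPM in the MIGR1 controls and 212 and 202 in the Chaf1b deleted libraries. It was likewise higher in both, at 0.60 ± 0.22 (SE, 95% interval 0.09 to 1.10) with an adjusted p of 0.321. Its partner Slc3a2, the most abundant of the list per kilobase, had a log2 fold change of 0.32 and Slc1a4 of 0.53. In both of these each deleted library was above each control. Slc3a2 ranged from 0.16 without deleted replicate 1 to 0.48 without deleted replicate 2. Slc1a4 ranged from 0.35 without control replicate 2 to 0.72 without control replicate 1. The window before Slc7a11 (RefSeq, GRCm38.p6) held the CARE core on each strand, here in capitals (chr3:50247575-50247601, minus strand).
Slc7a11: TGATGCAAacctggagaatTTGCATCA

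Of 12 genes of amino acid and folate synthesis, 1 (Phgdh, 3-phosphoglycerate dehydrogenase) was above 0 and 11 were below, with a median of -0.23. Of the 12, 0 were called by edgeR's quasi-likelihood test, the exact test or DESeq2, and 2 (Asns and Aldh1l2) were lower at an unadjusted p under 0.05, where 3.10% of all genes were. With no low-count filter Aldh1l2 was called lower by edgeR's quasi-likelihood test (adjusted p 0.0167), where 79 of 31399 genes were. The direction of the list rested on control replicate 1. Without it 6 of 12 were above 0, the median was 0.01 and Aldh1l2 was also called lower (adjusted p 0.0352), while 4 of 12 were above 0 without deleted replicate 2 and 2 of 12 without control replicate 2. Aldh1l2, a mitochondrial folate enzyme, had 2.38 and 7.20 CPM in the MIGR1 controls and 0.892 and 1.95 in the Chaf1b deleted libraries. The deleted libraries were lower, but the controls themselves were far apart. Its log2 fold change was -1.76 ± 0.63 (SE, 95% interval -3.23 to -0.29), with an adjusted p of 0.312, and -2.35 and -0.77 without control replicates 1 and 2. Pycr1, of proline synthesis, had 5.28 and 9.56 in the controls and 3.02 and 5.63 in the deleted libraries, with overlapping groups and a log2 fold change of -0.78 that ranged from -1.16 without deleted replicate 2 to -0.31 without control replicate 2. Shmt2, the mitochondrial serine hydroxymethyltransferase and the most abundant of the list per kilobase, was at -0.19 with overlapping groups, ranging from -0.46 without control replicate 2 to 0.13 without control replicate 1. Of the 31-base stretches of Phgdh, 62.1% occurred elsewhere in the genome, so its count is uncertain.

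All 13 tRNA charging genes were below 0, with a median log2 fold change of -0.37 and a range of -0.58 to -0.04. In 10 of the 13 each deleted library was below each control, an ordering shown by 22.9% of all genes tested. None was called by edgeR's quasi-likelihood test, the exact test or DESeq2, and 2 (Eprs and Xpot) were lower at an unadjusted p under 0.05, against 3.10% of all genes tested. All 13 were also below 0 with DESeq2 size factors and with library size only, and 12 were with no low-count filter, where Wars was level (0.00). Without control replicate 1, 3 were above 0 and the median was -0.15, and without deleted replicate 2, 1 was above 0. Without deleted replicate 1 the median was -0.52 and 0 of 13 were above 0.

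Eprs, the glutamyl-prolyl-tRNA synthetase, had 496 and 405 CPM in the MIGR1 controls and 296 and 318 in the Chaf1b deleted libraries. It was lower in both deleted libraries than in either control, with a log2 fold change of -0.53 ± 0.23 (SE, 95% interval -1.06 to just under 0) and an adjusted p of 0.406. Xpot, which exports tRNAs from the nucleus, had 167 and 141 CPM in the MIGR1 controls and 100.1 and 102 in the Chaf1b deleted libraries, again with both deleted libraries lower, a log2 fold change of -0.58 ± 0.21 (SE, 95% interval -1.07 to -0.10) and an adjusted p of 0.311. For Xpot, 37.8% of its 31-base stretches occurred elsewhere in the genome. Iars was at -0.56 and Gars, the most abundant of the list per kilobase, at -0.32, and in both each deleted library was below each control, though 16.9% of the 31-base stretches of Iars occurred elsewhere in the genome. Gars ranged from -0.50 without control replicate 2 to -0.13 without control replicate 1 and Iars from -0.77 without deleted replicate 2 to -0.36 without control replicate 1. A CARE core was found in the promoters of 5 of the 8 charging genes with an entry, Aars, Gars, Iars, Tars and Yars. Over the 17 tested genes of all lists and members with the core, 7 were above 0 and 10 below, with a median of -0.09. Without control replicate 1, 9 were above 0 with a median of 0.02. Without deleted replicate 1, 5 were above 0 with a median of -0.22.

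**Figure D5:**
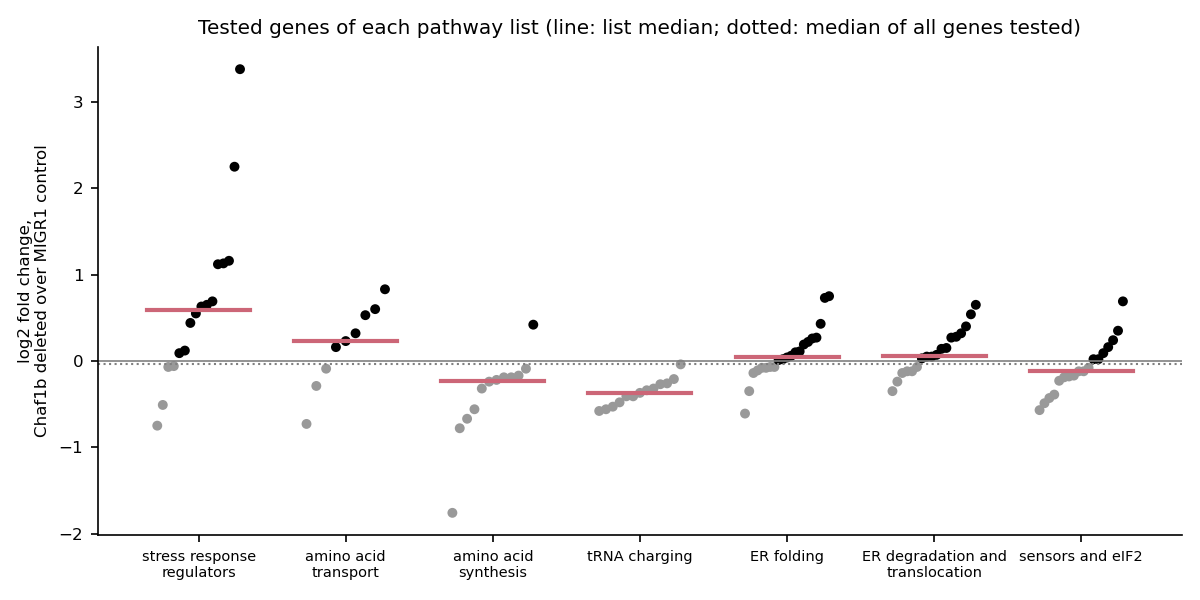
Log2 fold change of Chaf1b deleted over MIGR1 control (vertical axis) of each tested gene in 7 pathway lists, black above 0 and gray below, where red lines are list medians and the dotted line the median over all genes tested. The regulators have a median of 0.59 with Gdf15 at the top, all 13 tRNA charging genes lie below 0 in the fit shown (10 of 13 without control replicate 1), and the ER lists are centered near 0.

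Of 21 ER folding genes, the members Hspa5, Hsp90b1 and Sdf2l1 included, 13 were above 0 and 8 below. Their median log2 fold change was 0.04, while with library size only 10 were above 0 and the median was -0.01. None was called by edgeR's quasi-likelihood test, the exact test or DESeq2. At an unadjusted p under 0.05, 1 of 21 (Dnajb9) was higher and 1 (Fkbp2) lower, where 9.15% and 3.10% of all genes tested were. The count above 0 followed the libraries, being 3 of 21 without deleted replicate 1, 18 of 21 without deleted replicate 2 and 8 of 21 without control replicate 2. In 17 of the 21, replicate 1 exceeded replicate 2 in the controls and in the deleted libraries alike, which held for 20.9% of all genes tested (17 of 21 and 30.5% on the TMM scale). The pattern was not limited to ER genes, since it also held for 3 of 5 ATF4 branch members and 7 of 13 tRNA charging genes in CPM, and for 5 of 5 and 12 of 13 on the TMM scale. Summed, the 21 genes took 11367 and 9721 CPM in control replicates 1 and 2 and 11621 and 9144.5 in deleted replicates 1 and 2. The spread within each group was thus larger than the distance between the group means.

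Calr, calreticulin, the most abundant of the list per kilobase, showed this with 2340.1 and 1576 CPM in the MIGR1 controls and 2436 and 1456 in the Chaf1b deleted libraries. Replicate 1 was high and replicate 2 low in both groups, which overlapped, and the log2 fold change was 0.04 ± 0.39 (SE, 95% interval -0.86 to 0.94), ranging from -0.51 without deleted replicate 1 to 0.46 without deleted replicate 2. Dnajb9, an ER co-chaperone also known as ERdj4, had 34.3 and 31.4 CPM in the MIGR1 controls and 53.5 and 53.1 in the Chaf1b deleted libraries. Here both deleted libraries were level with each other and above both controls, with a log2 fold change of 0.73 ± 0.21 (SE, 95% interval 0.24 to 1.21), an unadjusted p of 0.00905 and an adjusted p of 0.219. It lay between 0.61 and 0.85 in all 12 alternatives. Of its 31-base stretches, 22.9% occurred elsewhere in the genome. Creld2, a secreted ER stress protein, had 61.5 and 37.0 in the controls and 96.6 and 63.5 in the deleted libraries and a log2 fold change of 0.75 ± 0.34 (SE, 95% interval -0.05 to 1.54), with an adjusted p of 0.447, and it ranged from 0.28 without deleted replicate 1 to 1.17 without control replicate 1. Deleted replicate 2 was barely above control replicate 1, so this separation was small against the spread within the groups. Fkbp2, an ER prolyl isomerase, had 45.0 and 44.2 in the controls and 32.4 and 24.3 in the deleted libraries, lower in both deleted libraries, at -0.61 ± 0.25 (SE, 95% interval -1.20 to -0.02) with an adjusted p of 0.388. Its range was -0.96 without deleted replicate 1 to -0.32 without deleted replicate 2.

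ERSE was also found in 5 ER folding genes beyond the members and in 2 genes of ER-associated degradation. Their elements are set out so that genes of the named lists can also be grouped by sequence. In all, 7 of the 16 ER folding genes with a promoter entry held ERSE (43.8%), against 0.119% of all promoters. The former share is of genes with a match in any entry, the latter of single promoter entries. Each element is written in capitals on the strand of its gene, and where it begins with CGTGG it lies on the opposite strand. They sit on NCBIM37 at chr8:87370974-87370992 (Calr, minus strand), chr11:50139302-50139320 (Canx, minus strand), chr12:17273297-17273315 (Pdia6, plus strand), chr14:119337049-119337067 (Dnajc3, plus strand), chr15:88649950-88649968 (Creld2, plus strand), chr19:6046532-6046550 (Syvn1, plus strand) and chr10:75355987-75356005 (Derl3, plus strand). Together with Hspa5, Hsp90b1, Herpud1 and Dnajb11 (ERSE-II), 11 genes of the named lists held either element. Genes outside these lists were not taken. Of the 11, 9 were above 0, with a median log2 fold change of 0.19 and a range of -0.08 to 0.75. With library size only 7 of 11 were above 0. Without deleted replicate 1, or without control replicate 2, 3 of 11 were, and without deleted replicate 2, or without control replicate 1, all 11. None of the 11 was called in any of these fits. In 9 of the 11, replicate 1 exceeded replicate 2 in both groups.
Calr: CGTGGTCGACCCTCATTGG
Canx: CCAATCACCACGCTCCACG
Pdia6: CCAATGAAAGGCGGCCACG
Dnajc3: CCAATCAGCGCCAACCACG
Creld2: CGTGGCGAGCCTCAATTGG
Syvn1: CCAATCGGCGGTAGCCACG
Derl3: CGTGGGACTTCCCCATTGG

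Of 18 genes of ER-associated degradation and translocation, the member Herpud1 included, 12 were above 0 with a median of 0.06. None was called by edgeR's quasi-likelihood test, the exact test or DESeq2. Of the 18, Syvn1 was higher at an unadjusted p under 0.05, where 9.15% of all genes tested were. Leaving out deleted replicate 1 left 5 of 18 above 0, and leaving out deleted replicate 2 left 15. Syvn1, the ubiquitin ligase HRD1, had 40.3 and 33.1 CPM in the MIGR1 controls and 51.7 and 61.8 in the Chaf1b deleted libraries. The controls were below either deleted library, with a log2 fold change of 0.65 ± 0.21 (SE, 95% interval 0.15 to 1.14) and an adjusted p of 0.277. Its exons overlap Mrpl49 on the opposite strand. Edem1, which extracts misfolded glycoproteins and is the most abundant of the list per kilobase, had 403 and 395 in the controls and 502 and 534 in the deleted libraries, and Selk, an ER membrane selenoprotein, 35.6 and 25.9 in the controls and 47.6 and 40.0 in the deleted libraries, both higher in each deleted library, with log2 fold changes of 0.40 and 0.54 and adjusted p of 0.523 and 0.472. Leaving out single libraries, Selk ranged from 0.29 without deleted replicate 1 to 0.80 without control replicate 1. Of the 31-base stretches of Selk, 26.9% occurred elsewhere in the genome.

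Of 18 sensors and eIF2 factors, the member Xbp1 and Ppp1r15a (also a listed regulator) included, 7 were above 0. Their median log2 fold change was -0.12, and 0 were called by edgeR's quasi-likelihood test, the exact test or DESeq2. Of the 18, Ppp1r15a was higher and Eif2ak4 and Eif2b3 were lower at an unadjusted p under 0.05, where 9.15% and 3.10% of all genes tested were. Leaving out deleted replicate 1 left 3 of 18 above 0, and leaving out deleted replicate 2 or control replicate 1 left 10. Ppp1r15a, the GADD34 subunit that reverses eIF2 phosphorylation and is itself an ATF4 target, had 28.1 and 28.3 CPM in the MIGR1 controls and 42.6 and 46.8 in the Chaf1b deleted libraries. The controls were level and both deleted libraries were higher, with a log2 fold change of 0.69 ± 0.20 (SE, 95% interval 0.22 to 1.16), an adjusted p of 0.224 and values between 0.65 and 0.73 in all 12 alternatives. Eif2ak4, the kinase GCN2 that senses uncharged tRNA, had 79.7 and 81.6 CPM in the MIGR1 controls and 47.9 and 65.7 in the Chaf1b deleted libraries. Here the deleted libraries were lower, at -0.49 ± 0.21 (SE, 95% interval -0.97 to -0.02) with an adjusted p of 0.385. Eif2b3, a subunit of the eIF2 exchange factor, was at -0.57 ± 0.24 (SE, 95% interval -1.14 to just under 0), with an adjusted p of 0.408, also lower in both deleted libraries, ranging from -0.76 without control replicate 2 to -0.37 without control replicate 1. The kinase of the ER branch, Eif2ak3 (PERK), had 60.1 and 61.4 in the controls and 62.7 and 64.2 in the deleted libraries, and Ern1 (IRE1) 70.5 and 98.9 in the controls and 45.5 and 79.6 in the deleted libraries. Both are named as sensors at the head of the pathway, whatever their values. Eif2ak3 was almost level over the 4 libraries and Ern1 overlapped between the groups, and their log2 fold changes were 0.09 ± 0.20 (SE, 95% interval -0.37 to 0.55) and -0.43 ± 0.27 (SE, 95% interval -1.07 to 0.20).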

How the data were processed

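RNA of 4 samples was sequenced from ribosome-depleted, stranded libraries. The deposited values are whole-number counts per gene that the authors made, per the labels, with STAR and HTSeq on mm9. The labels give no versions, and annotation and strand setting are not given in the sources used here. Reads that the counting matched to no gene feature (35.8 to 48.3% of those counted or unassigned) were left out. Genes were named from GENCODE vM1 on NCBIM37, which named 33068 of 43629 identifiers. edgeR 4.0.16 was run across all genes (filterByExpr with a minimum of 10, TMM, quasi-likelihood test with legacy dispersions, Benjamini-Hochberg over 16500 genes). SE is the absolute log2 fold change over the root of F, and 95% intervals use the t quantile. A call needs an adjusted p under 0.05 and a 1.5-fold change. DESeq2 1.42.0, edgeR's exact test and its quasi-likelihood test without legacy dispersions were alternatives. Others changed the scaling or the filter, added the replicate number as a block or left out a library (12 in all). Levels are raw counts over the total on genes, not TMM-scaled, and library medians added 0.5 counts. Replicates of a group differed by far more than sampling noise (chi-square per degree of freedom 39.1 and 59.7). Named genes are the 10 members, Chaf1b, called genes of the 7 pathway lists, and per list the 3 with the smallest p and the most abundant per kilobase, and others were chosen after their values were seen. Members and lists were chosen with earlier results of these data known. Promoters came from RefSeq (GRCm38.p6), with 97 entries for 83 of 107 genes. A gene counted as a match if any of its entries matched, while shares over all promoters are of single entries. The fit was tested on simulated data with changes larger than those of the members. How well it finds changes as small as theirs was not tested.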

Additional observations from a re-analysis of the deposited data

How the results depend on the processing

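The count of called members was 0 in all 12 alternatives, and the count over all genes, 62 (61 higher, 1 lower), depended on the setting: 28 (27 higher, 1 lower) with DESeq2 size factors, 31 (30 higher, 1 lower) with library size only, 887 (808 higher, 79 lower) of 31399 genes with no filter, 3 (3 higher, 0 lower) with 10 counts required in every library, 553 (518 higher, 35 lower) in the exact test, 483 (458 higher, 25 lower) in DESeq2, fitted to the same 31399 genes with its own independent filtering, and 131 to 366 without 1 library (125 to 331 higher, 6 to 42 lower). Without legacy dispersions the quasi-likelihood test called 81 (80 higher, 1 lower). With the replicate number as a block, 14 (14 higher, 0 lower) were called. Same-numbered libraries deviated together with a correlation over genes of 0.0133. A correlation over all genes cannot decide whether same-numbered samples were handled together. In the ER folding list, replicate 1 exceeded replicate 2 in both groups for 17 of 21 genes, against 20.9% of all genes tested. The cause was not tested. The median log2 fold change of the ATF4 branch members ran from 0.15 to 0.56 and that of the ER members from -0.27 to 0.52 when 1 library was left out; other settings moved neither beyond the spread between replicates. Leaving out 1 library turned the sign of Atf4 (-0.25 to 0.43), Xbp1 (-0.33 to 0.11), Hspa5 (-0.21 to 0.52), Hsp90b1 (-0.27 to 0.11), Herpud1 (-0.06 to 0.56) and Sdf2l1 (-0.35 to 0.71), while Ddit3, Trib3, Chac1 and Asns had the same sign in all 12 alternatives. The median over all genes was -0.16 in DESeq2 and -0.13 with no filter, where genes of few counts enter. List counts without 1 library were chosen after the data were seen. A fit without 1 library rests on 1 library in a group, and the 95% intervals of most members span both directions at this depth and number of libraries.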

Other observations

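Among the genes called higher over all genes tested (0.370%) were the cytosolic heat shock genes Hspa1a and Hspa1b. Hspa1b had 11 and 15 counts in the MIGR1 controls and 453 and 326 in the Chaf1b deleted libraries, and Hspa1a had 0.440 and 0.197 CPM in the MIGR1 controls and 10.6 and 10.3 in the Chaf1b deleted libraries. Each deleted library was far above both controls for each gene, with log2 fold changes of 5.12 ± 0.39 (SE, 95% interval 4.22 to 6.01) and 5.05 ± 0.52 (SE, 95% interval 3.85 to 6.26) and adjusted p of 0.0120 and 0.0254. Both were called whichever single library was left out, while with the replicate number as a block, or with 10 counts required in every library, 1 of them was. These are near-identical copies that share 68.5% and 66.2% of their 31-base stretches with other places in the genome, so how reads were divided between them is uncertain. A list of 11 heat shock genes was drawn up after these calls were seen, so its count of called genes says nothing about the group. Of its 10 tested genes, 4 were above 0 and 6 below, with a median log2 fold change of -0.26, or 0.24 without control replicate 1. Apart from this pair, Dnajb1 (0.39) and Bag3 (0.19) were above 0 and Hspa8 (-0.55), Hsp90ab1 (-0.30) and Hspd1 (-0.38) below, with none of them called. These genes were not compared with the ER chaperones by a test.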
